A study of Homo sapiens with 18 samples.

Results

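The comparison set amiloride against TG003 in KMS12-BM, a human multiple myeloma cell line, after 24 h of treatment. It used 6 of the 18 libraries of the study, 3 with amiloride at 0.1 mM and 3 with TG003 at 0.4 mM. The members were all protein-coding genes of the count files, 19304 of 57905, leaving out pseudogenes and the 100 protein-coding genes with RPL or RPS symbols. That symbol rule also drops 10 RPS6K kinase genes. Of the members, 11684 had enough reads to be tested.

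RNA of both drug groups was measured by strand-specific poly(A) RNA sequencing and compared with 3 libraries of the same line labelled as untreated with DMSO, for which no duration is given. The study treated a second myeloma line, JJN3, with amiloride at 0.4 mM and TG003 at 0.4 mM for 24 h. No allele or transgene is named for any group, and each line is a single cell line grown in culture. Nothing in the sources used here ties the 3 libraries of a group to separate cultures, so p-values measure only the spread between these samples. Because the doses differ, drug and dose cannot be told apart in KMS12-BM.

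Amiloride is a potassium-sparing diuretic that blocks the epithelial sodium channel and, at higher concentrations, sodium-proton exchangers. TG003 is a benzothiazole compound that inhibits the CLK kinases, which phosphorylate serine/arginine-rich (SR) splicing proteins and so set their location and activity. Myeloma cells are malignant plasma cells: they make large amounts of secreted protein, carry a heavy load on the endoplasmic reticulum (ER), and depend on transcription factors such as IRF4. A comparison of 2 drugs that are both thought to reach splicing asks which messengers separate them.

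Reads in genes ranged from 29906945 to 43429618 per amiloride library, from 29794926 to 38852481 per TG003 library and from 30129927 to 50570234 per DMSO library. The TG003 libraries stood apart in how reads were placed. Processed pseudogenes held 0.0734% to 0.0974% of their reads in genes, against 4.22% to 4.57% with amiloride and 5.06% to 5.23% with DMSO. HTSeq's records at more than 1 genome position made up 7.79% to 8.23% of all records with TG003 and 13.3% to 14.6% with amiloride. Genes with near copies elsewhere can therefore differ between the groups by placement alone. For each gene the share of its 25-base words that also occurs in another, non-overlapping gene was computed, and it is called the shared share below.

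The line label was checked against 10 plasma cell markers. Their summed level was 3050 to 3374 CPM (read counts scaled to the library total) with amiloride, 1028 to 1098 CPM with TG003 and 2343 to 2419 CPM with DMSO, and SLAMF7 was below 1 CPM in all 9 libraries. IRF4 alone held 2009 to 2251 CPM of the amiloride sum. MZB1, an ER protein of B and plasma cells, went the other way, at 58.2 to 113 CPM with amiloride, 172 to 236 CPM with TG003 and 292 to 360 CPM with DMSO. SDC1, the CD138 antigen, was at 2.40 to 2.93 CPM with amiloride, 2.43 to 3.79 CPM with TG003 and 13.2 to 14.3 CPM with DMSO. Markers of other blood and stromal cells summed to 145 to 216, 142 to 160 and 149 to 171 CPM in the same order. Of 28 such markers matched, 9 had no read in any of the 9 libraries and 20 stayed below 1 CPM, while the epithelial antigen EPCAM alone held 105 to 193 CPM. At an adjusted p under 0.05, 5 of the 10 tested markers were higher and 2 lower with amiloride than with TG003. These shares (50% and 20%) stand beside 38.1% and 38.9% of all members tested. The part of these markers in the results below was not tested.

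Most protein-coding genes differed between the drugs. At an adjusted p under 0.05, 4452 genes (38.1% of those tested) were higher and 4548 (38.9%) were lower with amiloride than with TG003, 77% together. Over all 15765 genes tested, members or not, 77.8% were called. A difference of at least 2-fold was called upward in 1417 member genes (12.1%) and downward in 2264 (19.4%). The median log2 difference of the members was -0.02. Against DMSO, 74.3% of members were called with amiloride and 55% with TG003, and both of those comparisons share the DMSO libraries. With a background this high, a single call says little, so the sizes and the lists below carry the description. Upper-quartile scaling lowered the median of all members by 0.15 and gave 3756 higher and 5211 lower genes.

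The differences followed the base composition of the transcripts. Among 7355 nuclear genes with a shared share under 2%, the fifth with the lowest GC content (31.0% to 41.5%) had a median log2 difference of 0.36, and the fifth with the highest (60.6% to 76.0%) had -0.59. The same bins had medians of 0.43 and -0.69 for amiloride against DMSO, and of 0.07 and -0.12 for TG003 against DMSO, so the slope was the steeper in the amiloride libraries. Transcripts with 1 to 5 exons had a median of 0.15 and those with 20 or more had -0.24. Here TG003 moved more, from -0.25 to 0.13 against DMSO, while amiloride went from -0.08 to -0.06. Spearman's rho across these genes was -0.307 with GC content, -0.149 with exon number and 0.165 with transcript length, and genes are not independent replicates. These properties are tied to each other. When the GC trend was removed, 14 of 39 list medians moved by more than the spread between replicates and a further 6 changed sign, and such values stand beside the lists below or in the closing section. The part of exon number and transcript length in the lists was not tested.

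**Figure D1:**
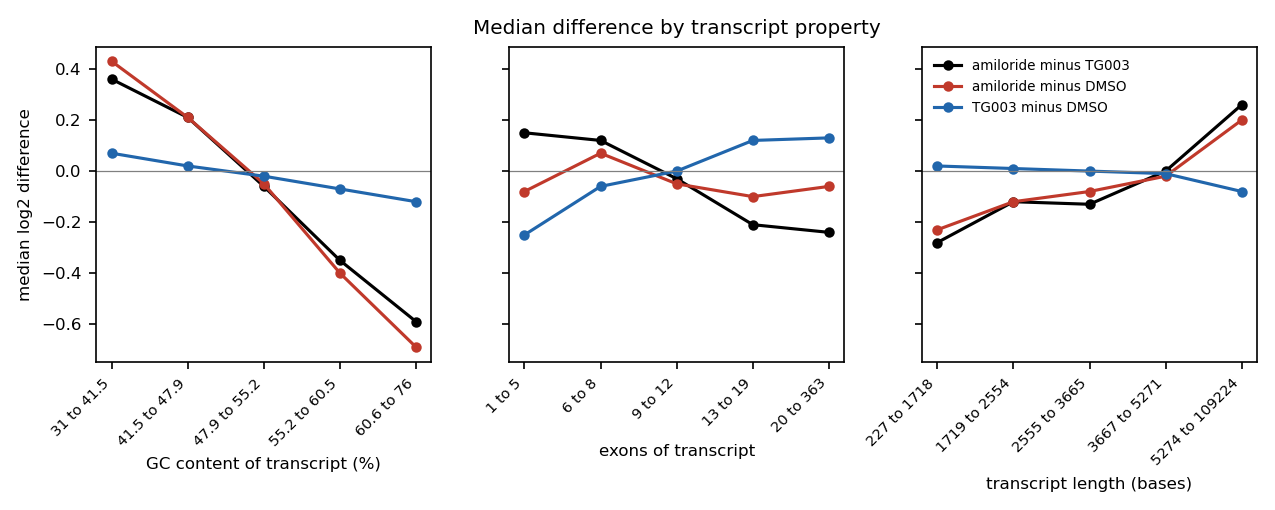
Median log2 difference (vertical axis) by bins of GC content, exon number and transcript length (horizontal axes) in 7355 nuclear genes of KMS12-BM with a shared share under 2%. Black is amiloride minus TG003, red amiloride minus DMSO and blue TG003 minus DMSO, and the black line falls from 0.36 to -0.59 with GC content.

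The messengers made in mitochondria gave 8 of the 12 largest falls among genes with a mean of at least 5 CPM, groups that do not overlap and no pseudogene of their symbol. Mitochondrial DNA encodes 13 proteins, all subunits of the respiratory chain and the ATP synthase, and both of its strands are transcribed into long precursors that are cut into single messengers. Of the 13 messengers, 12 were lower and 1 was higher with amiloride, and their median log2 difference was -4.96. MT-CO1, the catalytic subunit of cytochrome oxidase, was at 101, 47.1 and 51.2 CPM with amiloride, at 6885, 5518 and 6105 CPM with TG003, and at 6543, 5780 and 6231 CPM with DMSO. It was 93.0-fold lower with amiloride (log2 difference -6.54 ± 0.31 (SE), adjusted p = 4.21e-08), and the TG003 and DMSO libraries overlapped. MT-CO3, another oxidase subunit, was at 120, 66.0 and 97.4 CPM with amiloride and at 7306, 5794 and 6831 CPM with TG003 (-6.14 ± 0.22, adjusted p = 3.45e-09). MT-CYB, the mitochondrially encoded subunit of complex III, was at 118, 67.7 and 116 CPM against 3501, 2609 and 3269 CPM (-4.96 ± 0.22, adjusted p = 1.88e-08). Amiloride replicate 1 was the highest of its group in these 3 messengers, and no amiloride library reached the TG003 range.

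The other messengers of the same strand were lower too. The subunits of complex I among them were between -3.46 (MT-ND1) and -6.07 (MT-ND3) on the log2 scale. MT-ND5 was at 101, 86.6 and 118 CPM with amiloride and at 1464, 1064 and 1300 CPM with TG003, a log2 difference of -3.65 ± 0.14 (adjusted p = 1.38e-09). The ATP synthase messengers MT-ATP6 and MT-ATP8 were at -5.52 and -5.28. MT-CO2 was at -5.89 and MT-ND4 at -4.54.

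MT-ND6, the only one of these messengers read from the opposite strand, went the other way. Its levels were 256, 87.1 and 166 CPM with amiloride, 26.2, 24.2 and 31.2 CPM with TG003 and 25.1, 22.5 and 30.5 CPM with DMSO. It was 6.23-fold higher with amiloride (2.64 ± 0.35, adjusted p = 8.84e-05), and its lowest amiloride library stood above all TG003 and DMSO libraries. The strand setting of the counting is not given in the sources used here, and without it reads of MT-ND6 cannot be told from antisense RNA of its neighbours. The shared share ran from 5.28% (MT-ND3) to 75.4% (MT-CO1) among the messengers, and nuclear copies of mitochondrial DNA are known. MT-ND3 with the smallest of these shares was 67.2-fold lower. All mitochondrial genes together held 0.265% to 0.448% of reads with amiloride and 3.43% to 4.41% with TG003. Bulk samples do not measure separately the mitochondria per cell, the cells that hold them and the RNA in each. The part of these in the falls, and in the opposite change of MT-ND6, was not tested.

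**Figure D2:**
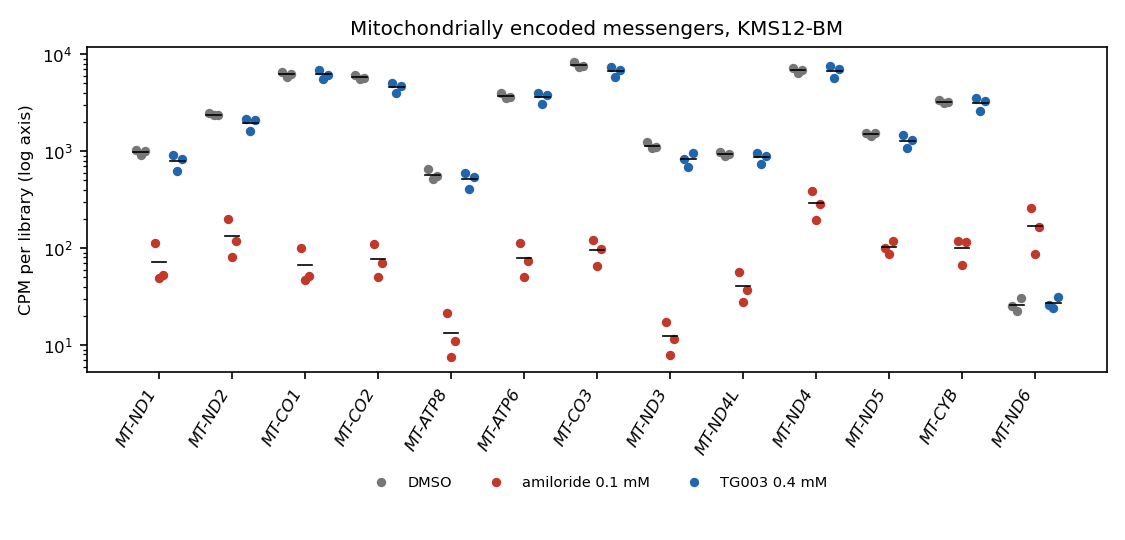
CPM of the 13 mitochondrially encoded messengers in each KMS12-BM library (log axis), with DMSO in grey, amiloride in red, TG003 in blue and a bar at each mean of 3 libraries. The red points lie below the others in 12 messengers and above them in MT-ND6.

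Nuclear genes for mitochondrial RNA and for the respiratory chain moved far less. Among 28 tested factors of mitochondrial transcription and RNA handling, 9 were higher and 11 lower, with a median of -0.10. These shares (32.1% and 39.3%) stand beside 38.1% and 38.9% of all members. TFB1M, a methyltransferase of mitochondrial ribosomal RNA, was at 3.94, 3.83 and 3.39 CPM with amiloride and at 12, 13.3 and 13.3 CPM with TG003 (-1.79 ± 0.13). FASTK and MTERF2 were lower by 1.13 and 1.55. Of 40 tested nuclear genes for respiratory subunits, 9 were higher and 17 lower (22.5% and 42.5%), with a median of -0.17. UQCRC1 of complex III and SDHC of complex II, the latter with a shared share of 26.6%, were lower by 1.65 and 1.5.

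The kinases that TG003 targets differed in both directions. CLK1 was at 94.5, 139 and 132 CPM with amiloride and at 71.4, 87.3 and 82.7 CPM with TG003, and DMSO libraries held 19.8 to 24.0 CPM. The drugs differed by 0.60 ± 0.14 (adjusted p = 0.00215), and both were above DMSO, by 2.49 with amiloride (adjusted p = 1.50e-07) and by 1.89 with TG003 (adjusted p = 9.40e-07). CLK3 was at 91.1, 117 and 95.1 CPM against 55.7, 58.4 and 54.3 CPM, 1.80-fold higher with amiloride (adjusted p = 9.63e-06). CLK2 went the other way, with 65.6, 67.8 and 54.4 CPM against 113, 121 and 119 CPM (-0.91 ± 0.09, adjusted p = 1.73e-06), and its amiloride level did not pass the test against DMSO (-0.18, adjusted p = 0.0855). CLK4 was at 11.1, 14.3 and 14.2 CPM against 16.8, 20.0 and 17.1 CPM (-0.44 ± 0.15, adjusted p = 0.0182), with DMSO at 3.88 to 5.73 CPM. Without amiloride replicate 1 or TG003 replicate 2 the CLK4 difference was -0.32 or -0.36 and no longer passed the test. The shared share of CLK2 was 20.5%.

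Other kinases of SR proteins were mostly higher with amiloride. Of the 11 tested SRPK, DYRK, HIPK and PRPF4B kinases, 8 were higher and 1 was lower. HIPK3 was at 153, 170 and 190 CPM with amiloride and at 66.8, 55.9 and 57.4 CPM with TG003, a 2.84-fold difference (adjusted p = 5.89e-08). HIPK1 and PRPF4B, the latter a kinase of the spliceosome, were 2.57-fold and 2.07-fold higher. DYRK1B was the lower one, at -1.67.

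Of 31 tested SR and SR-related proteins, 21 were higher and 5 lower with amiloride, with a median of 0.59 beside -0.02 for all members. With the GC trend removed that median was 0.34. Of the 12 SR proteins themselves 6 were higher and 3 lower (median 0.29), and of the 19 related proteins 15 were higher and 2 lower (median 0.70). SRSF1, the prototype SR protein, was at 584, 572 and 597 CPM with amiloride, at 373, 357 and 387 CPM with TG003 and at 568, 531 and 540 CPM with DMSO (0.65 ± 0.06, adjusted p = 1.95e-06). Its amiloride level was close to DMSO (0.10, adjusted p = 0.184) and its TG003 level lay below (-0.55, adjusted p = 1.84e-05). SRSF4 was at 143, 163 and 167 CPM against 61.3, 58.6 and 62.4 CPM (1.37 ± 0.08), with DMSO in between at 96.9 to 105 CPM. SON, a large SR-rich protein of nuclear speckles, was 2.41-fold higher and LUC7L2, a component linked to the U1 particle, 2.68-fold higher.

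Core spliceosome genes were split. Of 42 tested, 16 were higher and 11 lower (38.1% and 26.2%, beside 38.1% and 38.9% of all members). Their median was -0.02. SF3B1, the branch-point recognition subunit mutated in blood cancers, was at 767, 888 and 1037 CPM with amiloride and at 455, 451 and 474 CPM with TG003 (0.96 ± 0.10, adjusted p = 3.18e-06). PHF5A and DHX15 were higher by 0.51 and 0.56, the first with a shared share of 19.2%. Among 28 hnRNP proteins, 17 were higher and 5 lower (median 0.42, or 0.27 with upper-quartile scaling). Among the higher ones were HNRNPUL2 at 1.09, HNRNPH3 at 0.99 and HNRNPDL at 0.77. Of the 11 with a shared share under 2%, 8 were higher and none was lower. In nonsense-mediated decay, which removes messengers with early stop codons, 7 of 15 were higher and 6 lower. These shares (46.7% and 40%) stand beside 38.1% and 38.9% of all members. The list median was -0.16, and its genes ran from -1.10 to 1.27. SMG8 at 1.27, UPF2 at 1.07 and UPF3B at 0.99 were among the higher ones.

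Transcription elongation genes were mostly higher with amiloride, 15 of 20 against 3 lower (median 0.44, or 0.69 with the GC trend removed). CDK13, a kinase of the RNA polymerase II tail, was at 327, 372 and 422 CPM with amiloride and at 119, 111 and 112 CPM with TG003 (1.71 ± 0.09, adjusted p = 1.77e-08). AFF4, the scaffold of the super elongation complex, was 2.45-fold higher, and CCNT1, a cyclin of the elongation kinase P-TEFb, 2.20-fold higher. HEXIM1, the inhibitor of P-TEFb, was at 72.5, 61.2 and 67.4 CPM against 60.8, 55.0 and 57.9 CPM and missed the test (0.21 ± 0.09, adjusted p = 0.051). Its groups did not overlap, and 7 of the alternative settings gave it an adjusted p under 0.05, the fit with the replicate block among them (0.21).

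Genes of the integrated stress response were mostly higher with amiloride. In that response, kinases that phosphorylate the initiation factor eIF2 slow translation and raise ATF4, which drives genes of amino acid supply and, with DDIT3, of cell death. Of 35 tested members 29 were higher and 3 lower with amiloride, and the median was 0.96. DDIT3 was at 140, 184 and 171 CPM with amiloride, at 26.9, 55.0 and 32.6 CPM with TG003 and at 20.5, 17.6 and 19.4 CPM with DMSO. It was 4.33-fold higher with amiloride (2.12 ± 0.23, adjusted p = 1.44e-05), and TG003 itself was above DMSO by 0.99 (adjusted p = 0.00443). KLHL24 was at 196, 245 and 276 CPM against 38.8, 51.0 and 42.5 CPM (2.44 ± 0.14, adjusted p = 3.29e-08). PPP1R15B, which directs the phosphatase of eIF2, was at 293, 292 and 324 CPM against 91.5, 90.2 and 96.7 CPM (1.71 ± 0.07). CEBPG, a partner of ATF4, was at 111, 109 and 103 CPM against 40.4, 45.2 and 41.9 CPM (1.34 ± 0.08).

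The response was not uniform. ATF4 itself, at 628, 580 and 580 CPM against 444, 565 and 485 CPM, differed by 0.26 ± 0.09 (adjusted p = 0.0175), with a shared share of 59.9%. That call was lost with upper-quartile scaling (0.11) and without TG003 replicate 1 or 3 (0.18 and 0.24). ASNS, the asparagine synthetase that ATF4 controls, was lower with amiloride: 154, 128 and 99.5 CPM against 145, 235 and 192 CPM. Its groups overlapped, and the difference of -0.59 ± 0.20 (adjusted p = 0.0199) lost its call without amiloride replicate 3 (-0.43) or TG003 replicate 2 (-0.41) and with no filter on low counts (-0.58). The shared share of ASNS was 18.6%. The transfer RNA synthetases, many of them ATF4 targets, had 14 of 20 members higher and 4 lower. TARS1 for threonine was at 618, 710 and 657 CPM against 191, 249 and 226 CPM (1.57 ± 0.12), and YARS1 and NARS1 were higher by 1.15 and 1.10.

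The letters TGATGNAA of the C/EBP-ATF response element were searched on both strands of RefSeq promoter windows (GRCh38.p14), each from 250 bases before to 50 after a gene's start. They were found in 10 of 30 members of the stress response list with a window (33.3%) and in 245 of 9517 tested genes (2.57%). In this and the other searches the windows did not cover every chromosome. A member without a window can therefore still have a promoter in RefSeq. A match is a description of the letters and not evidence of binding. Other letters were searched in the same way. Those of the sterol response element (TCACNCCAC) were in 1 of 21 cholesterol genes (4.76%) and 1.43% of all, and the short CCACG letters of the ER stress response element in 27 of 35 ER genes (77.1%) and 57.7% of all. The xenobiotic response core (TNGCGTG) was in 2 of 7 genes (28.6%) and 9.55% of all. The windows of 2 higher genes and of ASNS, the lower one, are shown to set the same letters beside opposite differences, with the matches in capitals.
CEBPG (chr19:33373863-33374162, plus strand): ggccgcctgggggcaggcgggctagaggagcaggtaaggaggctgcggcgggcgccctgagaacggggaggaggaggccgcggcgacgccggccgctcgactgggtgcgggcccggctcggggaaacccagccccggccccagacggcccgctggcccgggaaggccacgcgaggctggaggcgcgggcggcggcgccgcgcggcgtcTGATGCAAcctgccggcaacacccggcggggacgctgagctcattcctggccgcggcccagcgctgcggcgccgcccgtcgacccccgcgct
PPP1R15B (chr1:204411768-204412067, minus strand): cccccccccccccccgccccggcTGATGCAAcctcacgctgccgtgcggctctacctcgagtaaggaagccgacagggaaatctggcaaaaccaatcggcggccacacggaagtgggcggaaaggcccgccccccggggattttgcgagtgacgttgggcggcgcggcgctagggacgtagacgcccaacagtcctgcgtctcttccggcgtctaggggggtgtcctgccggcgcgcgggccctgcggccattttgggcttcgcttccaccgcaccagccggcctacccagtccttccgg
ASNS (chr7:97872359-97872658, minus strand): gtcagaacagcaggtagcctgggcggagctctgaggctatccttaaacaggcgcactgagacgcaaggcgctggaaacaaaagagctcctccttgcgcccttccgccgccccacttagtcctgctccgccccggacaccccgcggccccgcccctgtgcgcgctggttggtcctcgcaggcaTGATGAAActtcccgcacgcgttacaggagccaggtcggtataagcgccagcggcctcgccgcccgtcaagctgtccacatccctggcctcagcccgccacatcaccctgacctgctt
All 3 windows hold 1 match, while the log2 differences were 1.34, 1.71 and -0.59.

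ER genes went both ways. Of 38 tested, 18 were higher and 15 lower (47.4% and 39.5%, beside 38.1% and 38.9% of all members). Their median was 0.13. EDEM1, which marks misfolded glycoproteins for degradation, was at 811, 811 and 830 CPM with amiloride and at 169, 176 and 181 CPM with TG003 (2.22 ± 0.07, adjusted p = 7.95e-11). XBP1, the transcription factor of the unfolded protein response and of secretory cells, was at 439, 551 and 548 CPM against 132, 145 and 145 CPM (1.87 ± 0.10, adjusted p = 1.15e-08). Its DMSO libraries lay in between at 281 to 317 CPM. DNAJB9, an ER co-chaperone, was 3.72-fold higher. HSPA5, the main ER chaperone BiP, was at 336, 319 and 326 CPM against 501, 352 and 382 CPM, with DMSO far above both at 1290 to 1466 CPM. The drugs differed by -0.33 ± 0.11 (adjusted p = 0.0189), a call lost without amiloride replicate 2 (-0.31) or TG003 replicate 1 (-0.17), and each drug was below DMSO (-2.07 and -1.74). Its shared share was 23.2%.

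**Figure D3:**
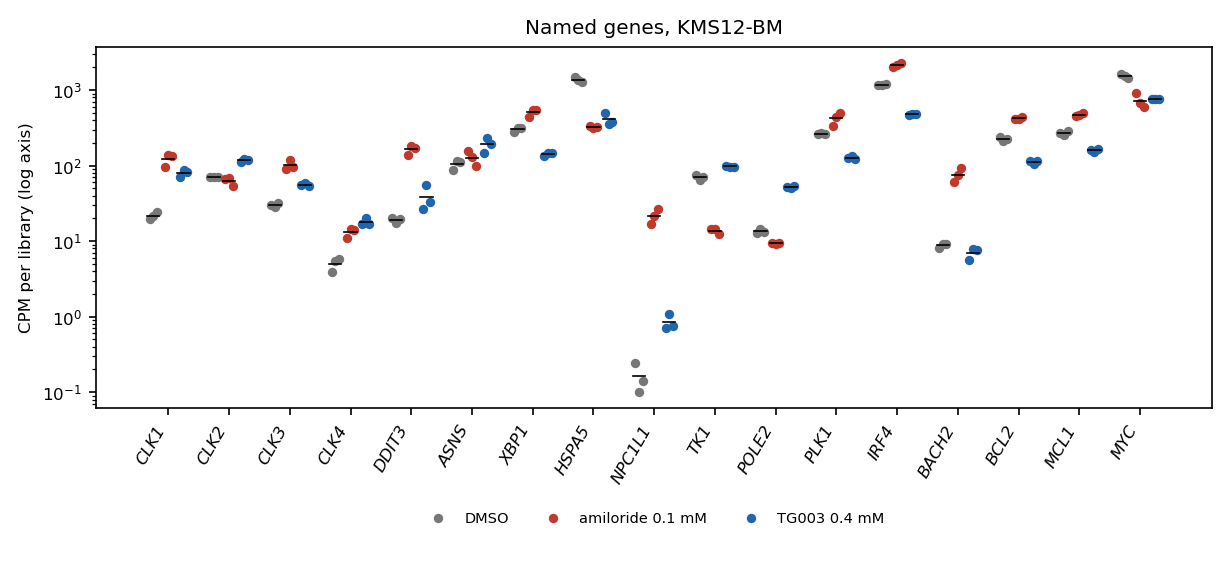
CPM of 17 genes in each KMS12-BM library (log axis), with DMSO in grey, amiloride in red, TG003 in blue and a bar at each mean of 3 libraries. HSPA5 and MYC are below DMSO with both drugs, whereas IRF4, BCL2 and MCL1 lie above DMSO with amiloride and below it with TG003.

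Sterol and lipid synthesis was lower with amiloride. Cholesterol is made from acetyl-CoA through mevalonate and squalene, under transcription factors called SREBPs. Of 27 tested genes of this list 22 were lower and 2 higher, with a median of -0.69. DHCR7, which catalyses a late step of the pathway, was at 33.0, 24.0 and 24.4 CPM with amiloride and at 105, 94.7 and 111 CPM with TG003 (-1.94 ± 0.12, adjusted p = 6.35e-08). HMGCS1, an early mevalonate enzyme, was at 104, 105 and 111 CPM against 159, 136 and 160 CPM, with DMSO above both at 222 to 394 CPM. That difference (-0.51 ± 0.17, adjusted p = 0.0198) did not pass without amiloride replicate 1 or 2 (-0.49 each) or TG003 replicate 1 or 3 (-0.47 each), or with no filter on low counts.

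In each step of the pathway the direction was mostly the same. All but 1 of 11 genes of the mevalonate and squalene part were lower and none was higher, and of 10 genes from lanosterol to cholesterol 8 were lower. SREBF2, the main sterol factor, was lower by 1.49. Those higher were INSIG1, which retains the SREBP complex in the ER, at 0.56, and LBR, a lamin receptor with sterol reductase activity, at 0.54; both were singled out after their values were seen. Fatty acid synthesis had 11 of 16 genes lower and 2 higher. DGAT1, which makes triglycerides, was at 9.33, 9.22 and 7.01 CPM against 104, 106 and 94.5 CPM (-3.57 ± 0.12), with DMSO in between at 27.7 to 30.4 CPM. FADS2, a desaturase, and DGAT2 were lower by 2.33 and 1.57.

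Among transporters of sterols, 2 of 11 were higher and 5 lower. NPC1L1, the intestinal cholesterol uptake protein, was at 17.1, 21.2 and 26.5 CPM with amiloride, at 0.717, 1.10 and 0.758 CPM with TG003 and at 0.243, 0.101 and 0.142 CPM with DMSO. It was 25.3-fold higher with amiloride than with TG003 (4.66 ± 0.23, adjusted p = 6.05e-09), and TG003 was above DMSO by 2.44 (adjusted p = 0.00017). LPCAT3, NPC1 and SCARB1 were lower by 2.46, 0.99 and 1.17.

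The genes of DNA replication were lower with amiloride almost throughout. Cells entering S phase raise replication genes under E2F factors, load the MCM helicase on DNA and make nucleotides. Of 46 tested genes 41 were lower and 2 higher, with a median of -1.12. TK1, the thymidine kinase of S phase, was at 14.6, 14.4 and 12.4 CPM with amiloride, at 99.7, 97.0 and 95.1 CPM with TG003 and at 75.6, 64.0 and 70.8 CPM with DMSO (-2.81 ± 0.09, adjusted p = 2.21e-10). POLE2, a subunit of DNA polymerase epsilon, was at 9.48, 9.25 and 9.57 CPM against 51.3, 50 and 54.3 CPM (-2.46 ± 0.09, adjusted p = 3.77e-10). Against DMSO, POLE2 was 1.94 higher with TG003 and 0.52 lower with amiloride.

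Among 21 genes of the MCM helicase and replication origins 16 were lower and 2 higher, with a median of -0.84. CDC45, a component of the replicative helicase, was at 3.4, 3.39 and 2.43 CPM with amiloride and at 26.9, 27.4 and 30.8 CPM with TG003 (-3.19 ± 0.15, adjusted p = 5.16e-09). It was named after its values were seen. MCM2 was at 364, 407 and 381 CPM with amiloride and at 567, 592 and 574 CPM with TG003 (-0.59 ± 0.07, adjusted p = 1.47e-05). MCM7 and TOPBP1, named after their values were seen, were the members higher with amiloride, by 0.41 and 0.50. Without genes of a shared share of 2% or more, 25 of 27 members were lower and 1 higher, with a median of -0.84.

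The letters TTTCGCGC and TTTGGCGC of E2F elements were searched in the same promoter windows on both strands. Either was found in 15 of 41 list members with a window (36.6%) and in 245 of 9517 tested genes (2.57%). The windows of MCM2 and POLE2 are shown as members of small and large difference, with the matches in capitals, TTTCGCGC in the first, where matches on both strands overlap, and TTTGGCGC read on the opposite strand in the second.
MCM2 (chr3:127598161-127598460, plus strand): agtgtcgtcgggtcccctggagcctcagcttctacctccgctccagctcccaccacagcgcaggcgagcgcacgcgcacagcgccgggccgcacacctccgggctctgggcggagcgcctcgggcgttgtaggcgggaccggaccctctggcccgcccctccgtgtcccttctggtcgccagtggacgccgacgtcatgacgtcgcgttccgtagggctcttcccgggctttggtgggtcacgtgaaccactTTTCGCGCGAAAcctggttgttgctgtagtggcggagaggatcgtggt
POLE2 (chr14:49688165-49688464, minus strand): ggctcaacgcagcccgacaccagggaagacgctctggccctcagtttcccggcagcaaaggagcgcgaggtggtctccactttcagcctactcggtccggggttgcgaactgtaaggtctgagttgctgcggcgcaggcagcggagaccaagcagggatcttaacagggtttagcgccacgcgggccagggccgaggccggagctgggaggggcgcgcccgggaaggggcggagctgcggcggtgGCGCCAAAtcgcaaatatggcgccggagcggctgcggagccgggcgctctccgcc
Their log2 differences were -0.59 and -2.46.

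DNA repair genes were mostly lower as well. Of 38 tested, 27 were lower and 4 higher, with a median of -0.84. TIMELESS, which protects replication forks, was at 57.2, 55.7 and 52.1 CPM with amiloride and at 320, 377 and 386 CPM with TG003 (-2.71 ± 0.09, adjusted p = 2.76e-10). BRIP1, a helicase of the Fanconi pathway, was at 3.16, 1.91 and 2.56 CPM against 25.9, 23.1 and 25.9 CPM (-3.30 ± 0.16). FANCA of the same pathway was at 11.1, 9.92 and 8.31 CPM against 59.2, 54.2 and 57.7 CPM (-2.54 ± 0.11), and its DMSO libraries lay in between at 22.3 to 25 CPM.

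Mitotic genes were more often higher than lower. Of 39 tested, 20 were higher and 10 lower with amiloride, with a median of 0.36. PLK1, a kinase of mitotic entry, was at 335, 442 and 497 CPM with amiloride, at 125, 134 and 123 CPM with TG003 and at 258 to 268 CPM with DMSO (1.74 ± 0.12, adjusted p = 1.43e-07). PRC1, which bundles spindle microtubules, and CENPA, the centromeric histone, were higher by 1.34 and 1.30. CCNB1, the mitotic cyclin, was at 119, 134 and 150 CPM against 85.3, 91.5 and 90.9 CPM (0.59 ± 0.09, adjusted p = 9.26e-05), and amiloride did not pass the test against DMSO for it (-0.09, adjusted p = 0.372). CENPM, a centromere protein, was the exception in size, at 1.28, 0.853 and 0.684 CPM against 29.5, 24.7 and 25.7 CPM (-4.80 ± 0.24). Tubulins, which form microtubules, had 8 of 12 genes lower and 1 higher. No tested tubulin was among the genes with a shared share under 2%. Leaving out genes with a named pseudogene took the list median from -1.24 to -0.90. TUBB was at 720, 781 and 833 CPM against 2283, 2077 and 2324 CPM (-1.52 ± 0.09, shared share 41.1%), and TUBG1 and TUBB4A, with shared shares of 43.9% and 22.3%, were lower by 1.81 and 1.47.

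Histone messengers that reach a poly(A) library were higher with amiloride in 9 of 14 cases and lower in 3. None of the tested members was among the genes with a shared share under 2%. H4C8 was at 55.1, 51.6 and 58.8 CPM with amiloride and at 4.84, 5.45 and 4.19 CPM with TG003 (3.52 ± 0.17, adjusted p = 5.91e-09), with DMSO at 1.94 to 3.43 CPM. H2BC5 and H2BC11 were higher by 2.75 and 1.75, with shared shares of 38.1% and 30.7%. Replication-dependent histone messengers normally lack a poly(A) tail, so poly(A) libraries see only the tailed part of them, and how much of their RNA that is was not tested.

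Genes of plasma cell identity were mostly higher with amiloride. Of 35 tested, 22 were higher and 5 lower, with a median of 0.66. IRF4, on which myeloma cells depend, was at 2009, 2137 and 2251 CPM with amiloride, at 470, 475 and 479 CPM with TG003 and at 1177, 1150 and 1217 CPM with DMSO. It was 4.49-fold higher with amiloride than with TG003 (2.17 ± 0.07, adjusted p = 1.16e-10). The 3 groups did not overlap, with amiloride 0.85 above DMSO (adjusted p = 5.61e-07) and TG003 1.32 below it (adjusted p = 1.02e-08). PRDM1, the Blimp-1 repressor of plasma cells, was at 97.8, 100 and 97.3 CPM against 39.9, 45.4 and 45.6 CPM (1.17 ± 0.07), and amiloride was near DMSO (0.17, adjusted p = 0.0592). BACH2, a repressor of plasma cell differentiation in B cells, was also higher: 60.1, 76.1 and 91.8 CPM against 5.69, 7.75 and 7.63 CPM (3.44 ± 0.17, adjusted p = 9.90e-09).

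Of 19 surface antigens and genes of the lenalidomide pathway in this list 10 were higher and 5 lower. The largest falls, picked out after the values were seen, were those of TNFRSF13C, the BAFF receptor, at -2.75, and GPRC5D, an orphan receptor of plasma cells, at -2.60. TNFRSF17, the BCMA antigen, was at 115, 136 and 137 CPM with amiloride, at 38.7, 39.6 and 42.9 CPM with TG003 and at 102, 122 and 143 CPM with DMSO (1.68 ± 0.12, adjusted p = 1.56e-07). CRBN, the target of thalidomide analogues, was at 154, 173 and 178 CPM against 72.8, 78.5 and 74.8 CPM (1.16 ± 0.10), and amiloride was 1.47 above DMSO. CCND1, a G1 cyclin, was at 1120, 989 and 922 CPM against 742, 467 and 538 CPM (0.79 ± 0.18, adjusted p = 0.00216). Its mean was 969 CPM with DMSO, beside 1010 CPM with amiloride and 582 CPM with TG003. SDC1 did not pass the test between the drugs (-0.27 ± 0.16, adjusted p = 0.157), though both were below DMSO by more than 2 on the log2 scale (-2.39 and -2.12). Leaving out TG003 replicate 2 brought SDC1 to -0.41 and past the threshold, as did upper-quartile scaling.

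MYC, the growth-promoting transcription factor, was at 908, 666 and 591 CPM with amiloride, at 769, 755 and 750 CPM with TG003 and at 1626, 1522 and 1438 CPM with DMSO. Both drugs were below DMSO (-1.08 and -1.01), and they did not differ from each other beyond their spread (-0.07 ± 0.13, adjusted p = 0.631). Without amiloride replicate 1, the highest of its group, the difference was -0.26 and passed the test. Of 10 genes of the MYC network 7 were higher and 1 lower with amiloride, among them its partner MAX at 0.82, its antagonist MXI1 at 0.99 and MLXIP at 0.85. The list of ribosome biogenesis and MYC target genes was split, with 19 of 45 higher and 19 lower and a median of -0.06. Each side made up 42.2% of the list, beside 38.1% and 38.9% of all members. Of its 32 nucleolar genes 16 were higher and 11 lower (median 0.16). Of its 13 MYC targets 3 were higher and 8 lower (median -0.35). DKC1, NIP7 and WDR43, taken from the higher side of this tie, were higher by 0.92, 1.16 and 1.16.

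Of 33 regulators of apoptosis 22 were higher and 5 lower with amiloride, with a median of 0.57. They included 7 of 8 death-promoting BH3-only genes and 10 of 17 BCL2 relatives and caspases. The 8 death receptors of the list went both ways, with 5 higher and 3 lower, and ran from -3.57 to 1.61. Of the 5 with a shared share under 2%, 2 were higher and 3 lower. BCL2, which blocks cell death, was at 409, 415 and 441 CPM with amiloride, at 116, 104 and 115 CPM with TG003 and at 239, 210 and 227 CPM with DMSO (1.92 ± 0.08, adjusted p = 1.08e-09). MCL1, its relative with a short-lived messenger, was at 456, 463 and 499 CPM against 163, 151 and 164 CPM (1.57 ± 0.07), with DMSO in between at 255 to 283 CPM. BBC3 (PUMA) and HRK, which promote death, were at 61.8, 57.5 and 47.7 CPM against 16.9, 18.5 and 16.1 CPM, and at 74.7, 60.9 and 68.8 CPM against 22.6, 22.1 and 21.8 CPM. They were 3.24-fold and 3.07-fold higher.

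Of 24 p53 target genes 14 were higher and 5 lower. FAS, a death receptor, was at 187, 212 and 202 CPM against 59.0, 73.0 and 65.4 CPM (1.61 ± 0.11), and TIGAR and TNFRSF10B were higher by 2.29 and 1.33. MDM2, the ubiquitin ligase of p53, differed by 0.42 ± 0.09 (adjusted p = 0.00131), and by 0.11 and no longer called with the GC trend removed. CDKN1A, the p21 inhibitor, was barely detected, at 0.646 to 0.684 CPM with amiloride and 0.253 to 0.319 CPM with TG003 (1.21 ± 0.31, adjusted p = 0.00407), and DMSO spanned 0.277 to 0.657 CPM.

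Of 29 immediate-early genes, which respond first to growth and stress signals, 21 were higher and 1 was lower, with a median of 1.13. DUSP5, a phosphatase of ERK, was at 37.7, 42.1 and 48.3 CPM with amiloride and at 8.71, 8.56 and 10.3 CPM with TG003 (2.21 ± 0.12), with DMSO in between at 25.6 to 28 CPM. IER5 was at 197, 211 and 201 CPM against 62.2, 69.0 and 60.1 CPM (1.67 ± 0.08). FOS, at 0.138 to 0.376 CPM against 0.0324 to 0.266 CPM, was too low to separate the groups (0.89 ± 0.63, adjusted p = 0.216, and 1.66 without TG003 replicate 1). EGR1 was at 1.18 to 1.57 CPM against 0.681 to 0.909 CPM (0.76 ± 0.26, adjusted p = 0.0167), a call lost without amiloride replicate 3 (0.64) or TG003 replicate 1 or 2 (0.71 and 0.69).

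NF-kappaB targets had 15 of 22 genes higher and 4 lower, with a median of 0.47, or 0.77 with the GC trend removed. ICAM1, an adhesion molecule, was at 191, 237 and 259 CPM with amiloride and at 48.4, 67.4 and 55.2 CPM with TG003 (2.01 ± 0.13, adjusted p = 1.20e-07). CYLD, a deubiquitinase that restrains the pathway, and BIRC3, its ubiquitin ligase, were higher by 1.81 and 1.11. NFKBIA, the inhibitor and first target of the pathway, was lower: 103, 119 and 107 CPM against 136, 146 and 119 CPM (-0.28 ± 0.11, adjusted p = 0.0374), where the highest amiloride and the lowest TG003 library met, and leaving out amiloride replicate 1 or 3 or TG003 replicate 1 or 2 ended the call (-0.23, -0.26, -0.27 and -0.21). So did median-of-ratios scaling and DESeq2 (both -0.25) and removal of the GC trend (-0.14). Of 16 interferon-stimulated genes 7 were higher and 4 lower (43.8% and 25%, beside 38.1% and 38.9% of all members). Their median was 0.11, and they ran from -1.87 to 2.42. Among the higher ones were OAS3 at 2.42, IFIH1 at 1.61 and IFITM1 at 0.91 with a shared share of 21.6%.

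Of 18 glycolytic enzymes 12 were lower and 4 higher, while of 14 hypoxia-inducible genes 7 were higher and 4 lower, and the difference between these parts was not tested. Among the hypoxia genes KDM3A, a histone demethylase, VEGFA, a vessel growth factor, and HIF1A, the oxygen-regulated factor itself, were higher by 1.82, 1.74 and 1.67 and were picked out after their values were seen. PFKFB4, counted with the hypoxia genes, makes the activator of phosphofructokinase and was at 0.392, 0.392 and 0.342 CPM with amiloride, at 7.57, 6.71 and 7.05 CPM with TG003 and at 16.6, 22.5 and 32.0 CPM with DMSO (-4.22 ± 0.28, adjusted p = 1.22e-07). The glycolytic ALDOC, PFKL and PGAM1 were lower by 2.79, 2.11 and 2.27, the last with a shared share of 72.5%.

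NRF2 is the transcription factor of the oxidative stress response, and its list had 14 of 23 genes lower and 4 higher. PIR was at 0.758, 0.807 and 1.03 CPM with amiloride and at 17.5, 15.5 and 18.2 CPM with TG003 (-4.32 ± 0.17). GCLC, which starts glutathione synthesis, and EPHX1 were lower by 1.60 and 2.21. HMOX1, heme oxygenase, was at 19.6, 20.7 and 18.7 CPM against 22.8, 28.7 and 24.3 CPM (-0.36 ± 0.12, adjusted p = 0.0145), and the call was lost without TG003 replicate 2 (-0.26) and when the GC trend was removed (-0.02).

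The aryl hydrocarbon receptor list, to which many aromatic drugs are ligands, had 3 of 7 genes higher and 2 lower. These shares (42.9% and 28.6%) stand beside 38.1% and 38.9% of all members. CYP1A1, its classic target, was at 7.18, 6.78 and 7.08 CPM with amiloride, at 12.5, 11.7 and 11.7 CPM with TG003 and at 15.5, 16.6 and 17.3 CPM with DMSO (-0.77 ± 0.09, adjusted p = 1.39e-05). AHRR, the repressor of the receptor, went the other way, at 8.33, 9.18 and 8.31 CPM against 2.92, 2.33 and 2.58 CPM (1.72 ± 0.13), and TIPARP and SLC7A5 were higher by 0.89 and 0.28. The SLC7A5 call was lost without amiloride replicate 1 (0.16), without TG003 replicate 3 (0.24) and with upper-quartile scaling (0.13). CYP1B1 did not pass the read filter.

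Channels and exchangers that amiloride can block were mostly lower in messenger level. Of 14 tested genes 8 were lower and 2 higher. SCNN1A, which encodes the alpha part of that sodium channel, was close to the detection limit, at 0.0261 to 0.115 CPM with amiloride and 0.162 to 0.354 CPM with TG003 (-1.98 ± 0.57, adjusted p = 0.00737). Without amiloride replicate 2 it was at -2.97. ASIC1, an acid-sensing channel, was at 3.97, 2.79 and 1.88 CPM against 20.4, 20.3 and 23.8 CPM (-2.88 ± 0.21), and ASIC3 and SLC8B1 were lower by 1.88 and 1.10. Of 21 other genes of ion and volume balance 7 were higher and 10 lower, with OXSR1 and SLC12A4 at -1.03 and -1.49. These shares (33.3% and 47.6%) stand beside 38.1% and 38.9% of all members. The vacuolar proton pump had 7 of 16 genes higher and 3 lower (43.8% and 18.8%), with a median of -0.04. ATP6V1G1, ATP6V1C1 and ATP6V0D1 were higher by 1.34, 0.96 and 0.85. ATP6V0C, singled out after its values were seen, was at 3.11, 3.25 and 1.81 CPM with amiloride and at 25.2, 19.8 and 15 CPM with TG003 (-2.86 ± 0.26). Of 32 genes of lysosome and autophagy 14 were higher and 11 lower (43.8% and 34.4%). Their median was 0.09, or 0.39 with the GC trend removed, and UVRAG, MAP1LC3B and CTSS were higher by 1.44, 1.27 and 1.04. MAP1LC3B had a shared share of 23.8%.

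Proteasome and heat shock lists hold many genes with near copies. Of 36 proteasome genes 11 were higher and 13 lower (30.6% and 36.1%, beside 38.1% and 38.9% of all members). Their median was 0.00. PSMC1 was at 13.3, 15.6 and 14.1 CPM with amiloride, at 228, 221 and 242 CPM with TG003 and at 9.64 to 11.8 CPM with DMSO (-4.01 ± 0.10), with a shared share of 34.9%. When counts of pseudogenes carrying a gene's symbol were summed into the gene, the PSMC1 difference was 0.61, the opposite direction. PSMC6 and PSMD2 were at -1.49 and -0.88 with shared shares of 36.9% and 30.3%. Heat shock proteins had 8 of 26 genes higher and 10 lower (30.8% and 38.5%, beside the same shares of all members). HSP90AA1, HSPD1 and HSPE1 were at -0.92, -0.84 and -2.16 with shared shares of 45.9%, 58.6% and 47.5%. The list of ZNF zinc finger genes, most of them repressors of transcription, had 232 of 439 higher and 104 lower (median 0.31, or 0.15 with the GC trend removed and 0.16 with upper-quartile scaling), among them ZNF48 at 1.67, ZNF24 at 1.32 and ZNF512B.

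**Figure D4:**
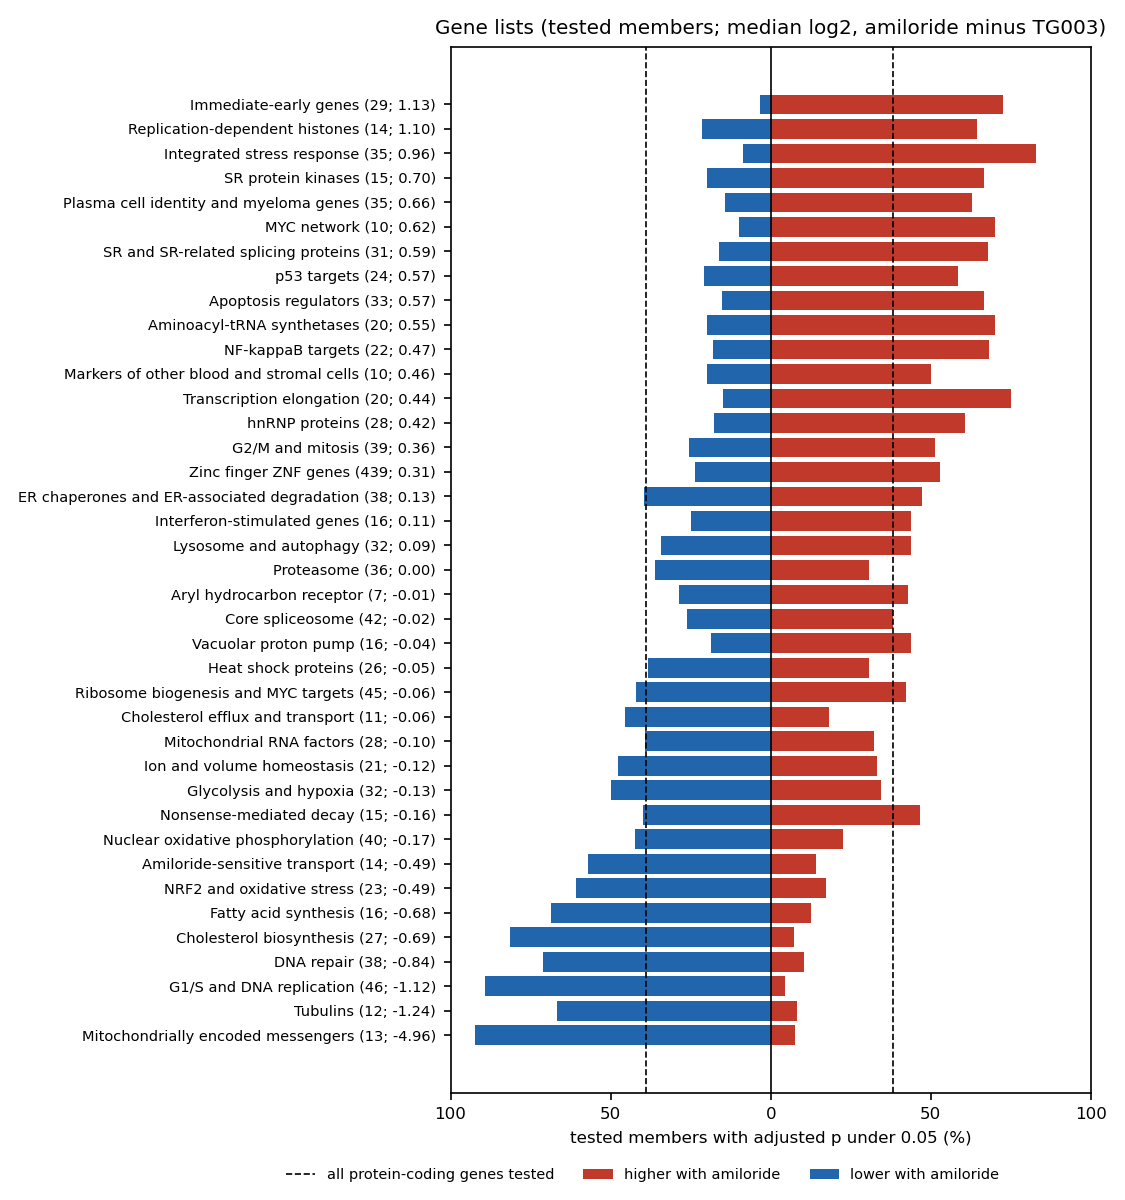
Share of the tested members of each gene list that were higher (red, right) or lower (blue, left) with amiloride than with TG003 at an adjusted p under 0.05, ordered by median log2 difference, which stands after the number of tested members. Dashed lines mark 38.1% and 38.9% for all protein-coding genes tested.

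The 12 largest rises by the naming rule mostly shared sequence with other genes. Ordered by the fitted difference, they were SETSIP, GNG5B, EIF2S3B, PABPC3, PPP1R2B, H3-5, RPEL1, KIF4B, GLUD2, UQCRHL, CSNK2A3 and NUDT4B, and 11 of the 12 have a single exon. In the 6 with more than 3 TG003 reads the log2 differences were 7.96 to 10.77. No TG003 library exceeded 0.505 CPM in any of the 12, and the amiloride mean was 0.782 to 1.71 times that of DMSO. PABPC3, a copy of the poly(A)-binding protein gene, was at 326, 269 and 310 CPM with amiloride, at 338, 269 and 334 CPM with DMSO and at 0.239, 0.130 and 0.177 CPM with TG003. KIF4B had 2 TG003 reads against 1132 with amiloride, a ratio of 552 (95% exact binomial counting interval 152 to 4561). RPEL1 had 1 TG003 read against 1272 with amiloride, a ratio of 1240 (95% exact binomial counting interval 222 to 49006). H3-5 had 1 TG003 read against 1433 with amiloride, a ratio of 1397 (95% exact binomial counting interval 250 to 55204). PPP1R2B had 2 TG003 reads against 3063 with amiloride, a ratio of 1493 (95% exact binomial counting interval 413 to 12331). SETSIP and GNG5B had no read in any TG003 library. Against a floor of 3 counts over that group they were at least 546-fold and 358-fold higher with amiloride, where the floor covers counting error only. The shared share of the 12 ran from 0% (H3-5) to 91.8% (NUDT4B), and processed pseudogenes were low in the same TG003 libraries.

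Of the 12 largest falls by the rule 8 were the mitochondrial messengers above, and GPRIN1, CENPM and CSKMT were among the others. A second selection, made after these values were seen, kept nuclear genes with at least 2 exons and a shared share under 2%.

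Its 12 largest rises spanned log2 differences of 3 to 4.66: NPC1L1, ZNF512B, MGAM, GIMAP8, GPR18, BACH2, PCF11, NR1D1, DDX47, RFX3, CREBRF and ZNF853. ZNF512B was at 17.6, 17.4 and 16.3 CPM with amiloride and at 0.797, 0.584 and 0.631 CPM with TG003, and DMSO held 0.657 to 0.937 CPM. MGAM, an intestinal maltase, was at 11.6, 15.4 and 14.3 CPM against 0.531, 0.713 and 0.581 CPM, and DMSO held 0.0347 to 0.101 CPM. PCF11, which ends transcription at poly(A) sites, was at 342, 439 and 506 CPM against 45.2, 33.1 and 41.1 CPM (3.43 ± 0.15), with DMSO in between at 96.0 to 103 CPM. NR1D1, the circadian repressor REV-ERB alpha, was at 37.9, 45.8 and 48.4 CPM against 4.20, 4.67 and 5.05 CPM, with DMSO in between at 13.8 to 15.1 CPM. DDX47, an RNA helicase of ribosome assembly, had a different pattern, with 26.2, 30.8 and 32.7 CPM against 3.29, 3.15 and 3.18 CPM and 21.5 to 23.2 CPM with DMSO, so TG003 was the group apart (-2.78 against DMSO).

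The 12 largest falls of that selection spanned -4.06 to -5.11: GPRIN1, CENPM, CSKMT, PLCB3, PIR, ARFRP1, SLC25A10, POLR2I, CHMP6, PKN3, GLYCTK and ST3GAL4. GPRIN1 was at 0.627, 0.208 and 0.205 CPM with amiloride and at 14.1, 10.9 and 11.7 CPM with TG003, with DMSO at 14.4 to 17 CPM, and it was at -5.86 without amiloride replicate 1, as SLC25A10 was at -4.92. POLR2I, a subunit of RNA polymerase II, was at 2.25, 2.42 and 2.19 CPM against 42.6, 42.4 and 41.9 CPM, and DMSO held 33.7 to 45.2 CPM. ARFRP1, a GTPase of Golgi traffic, was at 1.85, 1.87 and 1.4 CPM against 36.8, 32.7 and 29.8 CPM. In these last 3 genes amiloride was the group apart and TG003 did not pass the test against DMSO (-0.36, 0.05 and 0.12, adjusted p = 0.13, 0.719 and 0.361). PLCB3, a phospholipase of receptor signalling, was at 1.38, 0.992 and 0.786 CPM against 26.6, 24.0 and 24.2 CPM.

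The same contrast was measured in JJN3, where both drugs were at 0.4 mM. There 60% of 11915 protein-coding genes were called, and the difference between amiloride and TG003 itself differed between the lines in 6473 of 12957 genes (50%). Because the amiloride dose also changed, line and dose cannot be told apart. Across 6676 genes with a shared share under 2% tested in both lines, Spearman's rho of the 2 differences was 0.561. These comparisons share no library, and genes are not independent replicates. Read placement set the TG003 libraries of JJN3 apart as well. Processed pseudogenes held 0.0763% to 0.0939% of their reads in genes, against 4.22% to 4.35% with amiloride in that line. Records at more than 1 genome position made up 8.3% to 9.1% with TG003 and 14.7% to 15.2% with amiloride. The part of placement in what the lines share was not tested.

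Some differences were present in both lines. MT-CO1 was lower by 3.23 ± 0.14 in JJN3 against 6.54 in KMS12-BM, and MT-ND6 was higher by 4.13 ± 0.45 against 2.64. MCM2 was at -0.61 ± 0.13 in JJN3 and TNFRSF17 at 1.67 ± 0.25, with no called line difference (-0.01 ± 0.15, adjusted p = 1, and -0.03 ± 0.28, adjusted p = 1). CCND1 was higher in both lines (0.96 ± 0.20 in JJN3). The replication list had a median of -0.57 in JJN3 and the repair list -0.54.

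Several stress and sterol genes differed between the lines. DDIT3, higher by 2.12 in KMS12-BM, was at -0.02 ± 0.14 in JJN3 (adjusted p = 0.934), a line difference of 2.10 ± 0.30 (adjusted p = 3.03e-05). ATF4 and ASNS were lower with amiloride in JJN3, by 0.49 and 1.68. XBP1 was at 0.08 ± 0.09 in JJN3, a line difference of 1.76 ± 0.14 (adjusted p = 7.69e-09). HMGCS1, lower by 0.51 in KMS12-BM, was at 0.72 ± 0.09 in JJN3 (adjusted p = 1.84e-05), a line difference of -1.26 ± 0.21 (adjusted p = 1.25e-04). The cholesterol list had a median of 0.09 in JJN3. CYP1A1 reversed, from -0.77 to 2.21 ± 0.21 (line difference -3.02 ± 0.22, adjusted p = 2.04e-09). CLK1 was lower with amiloride in JJN3, by 0.87 ± 0.13, and HEXIM1 was higher by 1.46 ± 0.09. IRF4 was higher in both lines, by 2.17 and by 0.92 ± 0.12 (line difference 1.22 ± 0.14, adjusted p = 1.01e-06).

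**Figure D5:**
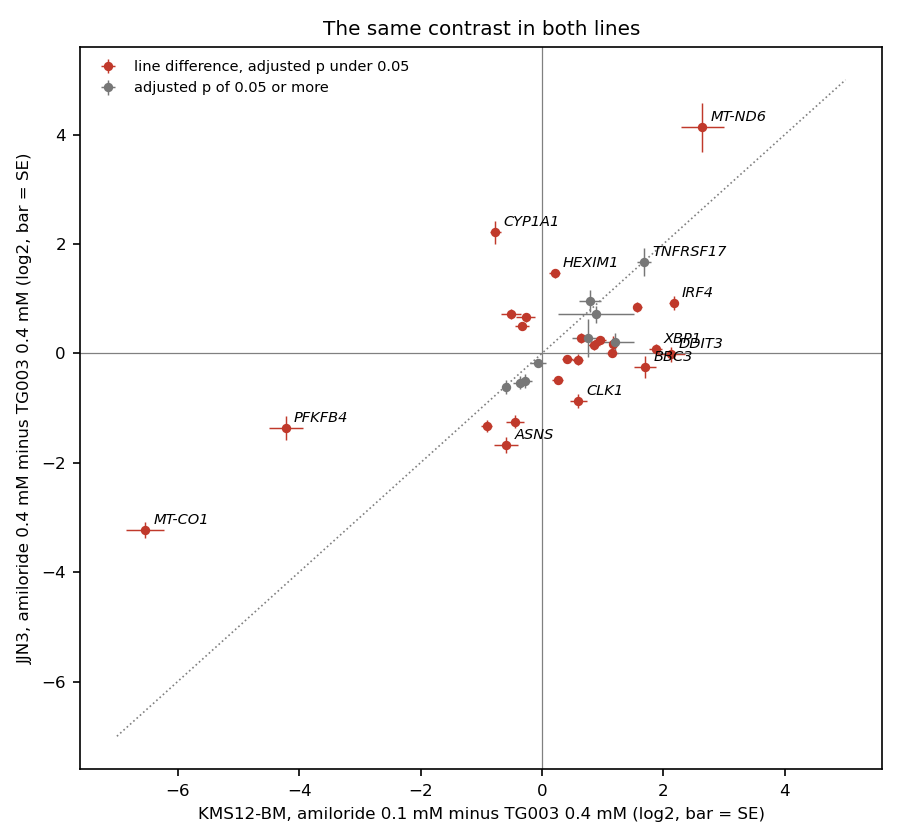
Log2 difference between amiloride and TG003 in KMS12-BM (horizontal axis) and JJN3 (vertical axis) for the genes listed for this comparison, reported here and tested in both, with bars for 1 SE and a dotted line of equal values. Red points have a line difference with an adjusted p under 0.05, among them CYP1A1, at -0.77 and 2.21, in a quadrant of opposite sign.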

How the data were processed

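Poly(A) RNA of 18 libraries was sequenced. Per the submitters' processing notes, the authors used cutadapt 1.4, TopHat2 2.0.11 on hg19, HTSeq 0.6.1p1 and DESeq2 1.12.4. The sources used here give no alignment options, annotation or strand setting. The authors deposited whole-number read counts per Ensembl gene. The members and gene lists were chosen with earlier results of these data known, so no list is independent evidence.

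Identifiers were joined to GENCODE v44 on GRCh37, which matched 55538 of 57905 and gave 43521 a symbol. The 9 KMS12-BM libraries were fitted together with edgeR 4.0.16 (R 4.3.3): filterByExpr (minimum count 10, total 15), TMM scaling, quasi-likelihood F tests of group means, and Benjamini-Hochberg adjustment over all genes tested. Every adjusted p is from edgeR unless another tool is named. Differences are log2, amiloride minus TG003; the SE after ± is the size divided by the square root of F. Levels are CPM on the TMM scale. The line difference is the interaction term over 18 libraries. Reads carry no molecular identifiers, so precision reflects counting and spread between libraries.

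Library numbers in the titles fall into 3 sets with 1 library of each group. Deviations from the group mean, which are tied to each other by that mean, correlated within sets (0.395, 0.154 and 0.236). Between sets the correlations ran from -0.341 to 0.147, so the highest was close to the lowest within a set. The sets were treated as pairs only in an alternative with a replicate block. Named were the 12 largest differences each way (adjusted p under 0.05, mean of at least 5 CPM, ranges apart, no pseudogene with the symbol), 39 genes listed for this comparison, and 3 members of each list, those of lowest adjusted p in its prevailing direction. Where as many members were higher as lower, the higher ones were taken. The alternatives were other scalings and filters, DESeq2 1.42.0, limma 3.58.1 (voom), the block, 6 libraries only, removal or summing of copies, removal of a GC trend, and each library left out. Procedures were tested on simulated data in which few genes changed, as many up as down. Scaling when most genes differ was not simulated. Some genes that fall under this rule are not reported here. Promoters are RefSeq's.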

Additional observations from a re-analysis of the deposited data

Results flagged for a closer look

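Of 36 genes listed for this comparison, tested and reported, 26 had a difference between amiloride and TG003 that differed between KMS12-BM and JJN3 by edgeR's interaction test at an adjusted p under 0.05, beside 50% of all members. The amiloride dose differs between the lines, so line and dose cannot be told apart. On the log2 scale, KMS12-BM minus JJN3, the difference was positive for DDIT3 (2.10), ATF4 (0.72), ASNS (1.06) and XBP1 (1.76) among stress genes. It was positive for the splicing genes CLK1 (1.44), CLK2 (0.38), CLK3 (0.66), CLK4 (0.77), SF3B1 (0.69) and SRSF1 (0.34). Among genes of cell death, cell cycle and plasma cells it was positive for BBC3 (1.92), MCL1 (0.69), MDM2 (0.50), CCNB1 (0.68), IRF4 (1.22), PRDM1 (0.97) and CRBN (1.12), and negative for SDC1 (-0.96). Sterol and sugar genes had negative values for HMGCS1 (-1.26) and PFKFB4 (-2.88), and NPC1L1, too low in JJN3 to be tested there alone, had 2.77. Negative values also belonged to MT-CO1 (-3.35), MT-ND6 (-1.52), CYP1A1 (-3.02), HEXIM1 (-1.28) and HSPA5 (-0.86).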

How the results depend on the processing

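Both counts of called genes stayed within 1.5 times under each alternative fitted to all members; leaving out 1 library gave 4180 to 4498 genes higher and 4313 to 4580 lower, DESeq2 gave 4550 and 4373, and limma voom gave 4446 and 4576. Counting only genes with a shared share under 2%, a setting chosen after seeing the data, left 2717 higher and 2917 lower of 7355. With the replicate block the counts were 4575 and 4709, and 6625 genes differed between the lines; among the named genes it changed only the call of HEXIM1 (0.21, then called). Called named genes kept their direction, except PSMC1, at 0.61 with pseudogene counts summed in. Of 39 list medians, 14 moved by more than the spread between replicates with the GC trend removed (by up to 0.43) and 17 with upper-quartile scaling (by up to 0.15), keeping their sign. With the GC trend removed, medians not updated beside their lists went from 1.10 to 1.53 for histones and from -1.24 to -0.94 for tubulins. DNA repair went from -0.84 to -1.04, fatty acid synthesis from -0.68 to -0.49 and cholesterol synthesis from -0.69 to -0.79. The NRF2 list went from -0.49 to -0.38 and the MYC network from 0.62 to 0.50. Medians of p53 targets and hnRNP proteins went from 0.57 to 0.65 and from 0.42 to 0.29. Lists with medians near 0 changed sign. With the GC trend removed, alone or with the block, the medians were 0.20 for the core spliceosome, 0.22 for nonsense-mediated decay, -0.07 for ER genes, 0.14 for the proton pump and 0.08 for ribosome biogenesis, and -0.12 alone and -0.14 with the block for the proteasome. With genes of a shared share under 2%, they were 0.22 for the core spliceosome, 0.35 for decay, -0.10 for ER genes, 0.89 for the aryl hydrocarbon receptor, 0.29 for ion balance, 0.36 for the proton pump and 0.60 for heat shock. Leaving out genes with a named pseudogene gave 0.33 for decay, 0.26 for ion balance and 0.08 for ribosome biogenesis. Summing pseudogenes gave 0.14 for the pump and 0.03 for ribosome biogenesis. Upper-quartile scaling gave -0.02 for ER genes, -0.05 for lysosome and -0.15 for the proteasome. Leaving out 1 library put the pump between -0.08 and 0.12, the latter without amiloride replicate 1. The cause of these changes was not tested. Depth limits SCNN1A, CDKN1A, FOS and EGR1, all below 2 CPM.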
